A study of Mus musculus with 16 samples.

Results

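Tetraspanins are membrane proteins, and 10 of their genes were followed in OT-1 T cells with and without the kinase Lck: Cd81, Cd9, Cd82, Cd151, Cd37, Cd53, Tspan32, Cd63, Tspan3 and Tspan31. They were taken by symbol from the probe annotation of the arrays and are 10 of 22328 genes with a probe. They had 16 probes, and the brightest probe of each gene, by its mean over all arrays, stood for it, so brightness chose the probes. No measured value enters the rule for the genes, but the list was selected on earlier results of these data, which gave their ratios and levels in both genotypes. All 10 passed the filter on dim probes in every comparison, and both channels of the brightest probe were flagged above background on 7 or 8 of 8 arrays of each genotype.

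The cells came from lymph nodes of mice with 1 copy of the OT-1 transgene (OT-1het), whose T cell receptor recognises SIINFEKL, a peptide of ovalbumin, on a Rag-/- background that makes no other T cells and no B cells. The control group was otherwise WT and the other was Lck-/-, marked OFF in the study's title. Both groups received 100 nM peptide for 24 h and then 100 µg/ml cycloheximide for 10 min, which holds ribosomes on mRNA. The labels give neither the age of the mice nor whether an extract came from a pool of animals, and p-values measure the spread between the 4 extracts that they call biological replicates. RNA from fractions 6 to 10 of a sucrose gradient was the polysomal pool, and RNA from fractions 1 to 5 was the sub-polysomal pool. Each of 4 WT and 4 Lck-/- extracts was measured on 2 arrays, polysomal against sub-polysomal, with the dyes swapped on the second array.

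Tetraspanins cross the membrane several times and gather integrins, immunoglobulin-family receptors and signalling molecules into patches of the membrane. In lymphocytes they act at the cell surface as partners of antigen receptors, co-receptors and integrins, and in endosomes they mark the vesicles released as exosomes. CD81 gives a costimulatory signal in T cells, while CD37 and CD53 are largely restricted to leukocytes.

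The promoters of Cd81, Tspan32 and Cd53 are shown, since Cd81 and Tspan32 are close neighbours on chromosome 7 that moved in opposite directions and Cd53 moved with Cd81. The sequences are those of RefSeq for GRCm38.p6, read 5′ to 3′ on the strand of the gene, from 250 bases before the transcription start to 50 after it. They are chr7:143052500-143052799 on the plus strand for Cd81, chr7:143004796-143005095 on the plus strand for Tspan32 and chr3:106790100-106790399 on the minus strand for Cd53. Capitals mark matches, on either strand, to the motifs searched.
Cd81 promoter: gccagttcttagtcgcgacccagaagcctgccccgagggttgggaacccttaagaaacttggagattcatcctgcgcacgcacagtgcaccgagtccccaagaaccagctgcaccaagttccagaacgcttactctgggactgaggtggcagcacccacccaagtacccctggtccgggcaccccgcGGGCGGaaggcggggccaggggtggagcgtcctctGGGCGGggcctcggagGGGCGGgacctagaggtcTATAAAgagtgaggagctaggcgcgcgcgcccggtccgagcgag
Tspan32 promoter: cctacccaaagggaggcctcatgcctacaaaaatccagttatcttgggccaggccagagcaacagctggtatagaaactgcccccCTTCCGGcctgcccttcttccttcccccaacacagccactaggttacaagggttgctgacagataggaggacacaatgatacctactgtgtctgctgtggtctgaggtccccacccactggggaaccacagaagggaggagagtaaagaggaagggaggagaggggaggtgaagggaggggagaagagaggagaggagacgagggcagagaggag
Cd53 promoter: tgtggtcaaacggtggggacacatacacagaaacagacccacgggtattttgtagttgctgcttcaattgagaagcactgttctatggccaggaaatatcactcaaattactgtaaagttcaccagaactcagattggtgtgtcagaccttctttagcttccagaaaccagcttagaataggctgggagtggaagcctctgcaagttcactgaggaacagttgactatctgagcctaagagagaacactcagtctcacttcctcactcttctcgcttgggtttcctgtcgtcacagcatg
The Cd81 window held the SP1 letters GGGCGG 3 times, first bases at -63, -28 and -12 from the start, and the TATA letters TATAAA at 7 bases after it. The Tspan32 window held the ETS letters CCGGAAG, on the opposite strand, at -165. The Cd53 window matched none of the motifs searched, which also included TGACGTCA (CRE), CACGTG (E-box), TGANTCA (AP-1), GGAAAA (NFAT) and the kappaB motif. Of 32851 promoter windows of this length, 35.7% held the SP1 letters, 13.6% the TATA letters, 8.86% the ETS letters and 23.4% the NFAT letters, and these matches are descriptions of the sequence only.

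Lck was examined first, as the check of the labels. Its log2 level, the mean of both pools, was 15.08, 15.16, 14.72 and 15.17 in the WT extracts and 14.18, 14.36, 14.04 and 14.14 in the Lck-/- extracts. All 4 Lck-/- extracts lay below all 4 WT extracts, and the mean was 0.85 log2 units lower (difference -0.85, SE 0.14, adjusted p = 0.00314 in limma). The Lck probe stayed far above background in the Lck-/- extracts, and where it lies relative to the deleted or silenced part of the gene is not given in the sources used here, so it checks the direction of the labels only. The arrays of WT replicates 1 and 2 stood apart. Over genes, the deviations of an extract from its genotype's mean correlated between its 2 dye-swapped arrays at 0.458 to 0.844 in the other 6 extracts but at -0.83 and -0.81 in these, while each matched the swapped array of the other at 0.867 and 0.938. Exchanging these 2 arrays (crossed dye swaps) or leaving out both extracts was therefore tried for every result, and the values are given where a call or a gap between the groups was lost. Between 14619 and 50776 probes per array were well above background in the polysomal channel and 12531 to 30976 in the sub-polysomal channel.

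The level of an mRNA, as the mean of the log2 levels in both pools, differed between genotypes for 5 of the 10 tetraspanins. Cd81 and Cd53 were lower in Lck-/- cells, and Cd63, Tspan31 and Tspan32 were higher, at adjusted p below 0.05 over 9073 genes. Among all genes tested, 10.2% were called higher and 11.2% lower, 21.4% in all. The extracts of the 2 genotypes did not overlap for these 5 tetraspanins, beside 26.4% of all genes. With crossed dye swaps all 5 calls were kept, and 4 of the 5 did not overlap, Cd53 being the exception. The median difference was -0.18 over the 10 tetraspanins and 0.04 over all genes. Because the genes were chosen with such results known, nothing is read from the share of them that passed. In whole extracts, fewer cells of a type and less RNA per cell cannot be told apart.

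Of the tetraspanins that partner receptors at the surface, Cd81 had the largest difference among the 10. Its log2 level was 10.94, 10.96, 10.90 and 11.15 in the WT extracts and 9.17, 8.94, 8.95 and 7.59 in the Lck-/- extracts. The WT extracts lay within a narrow range, every Lck-/- extract was lower, and Lck-/- replicate 4 was the lowest by a wide margin. The mean fell from 10.99 ± 0.11 (SD, n = 4) to 8.66 ± 0.72 (SD, n = 4), a difference of -2.33 (SE 0.29, 95% interval -2.96 to -1.70, limma adjusted p = 0.000942), or 5.03-fold lower. Without Lck-/- replicate 4 the difference was -1.97 and remained past the threshold. It was -2.40 on slide 1 and -2.27 on slide 2, each of which carried 1 array of every extract by the labels. If the swapped arrays of WT replicates 1 and 2 were exchanged, each slide held both arrays of 1 of these extracts and none of the other. Any fit on 1 slide alone would then count 1 WT extract as 2. The difference was -2.37 without WT replicates 1 and 2 (limma adjusted p = 0.0146). The probe lies at chr7:150253737-150253796 (mm9), and Cd81 had no other probe.

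Cd9, which is known for binding integrins and for its part in gamete fusion, did not pass the test. Its level was 8.41 ± 0.50 (SD, n = 4) in WT and 8.26 ± 0.26 in Lck-/- extracts, a difference of -0.15 with a 95% interval of -0.66 to 0.36. In WT, replicate 1 was lowest at 7.68, against 8.53 to 8.79 in the others. Its arrays read 8.28 and, for the dye swap, 7.08. With crossed dye swaps WT replicate 1 was at 8.43 and WT replicate 2 was lowest at 7.89. Cd151, a partner of laminin-binding integrins, was 8.48 ± 0.09 in WT and 8.23 ± 0.33 in Lck-/- extracts (difference -0.24, 95% interval -0.60 to 0.12). The groups of both genes overlapped.

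Cd82, a surface tetraspanin also known as a suppressor of metastasis, was read differently by its probes. The brightest probe gave 14.28, 14.20, 13.89 and 14.41 in the WT extracts and 14.59, 14.63, 14.27 and 14.32 in the Lck-/- extracts. These groups overlapped, and the difference of 0.26 (SE 0.15, 95% interval -0.07 to 0.59) did not pass the test (limma adjusted p = 0.227). Its 2 dimmer probes read the gene as lower, by -0.74 for the second brightest and -0.57 for the dimmest. With every probe tested in place of 1 probe per gene, the second was called lower in the mean level (limma adjusted p = 0.0207) and in the polysomal pool (-0.97, adjusted p = 0.0125). The dimmest was tested in the polysomal pool alone, at -0.61 (adjusted p = 0.0535). On the array the brightest probe lies at chr2:93259269-93259327, the second at chr2:93260018-93260077 and the dimmest at chr2:93274019-93274078, all on the minus strand of mm9. The dimmer pair are shown because they read Cd82 the opposite way from the probe that stood for the gene.
Cd82 second probe: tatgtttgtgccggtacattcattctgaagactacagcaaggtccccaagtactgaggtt
Cd82 dimmest probe: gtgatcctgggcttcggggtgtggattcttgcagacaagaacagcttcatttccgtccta
The direction of Cd82 therefore depended on the probe. Averaging the 2 probes that passed the filter in the mean level, without the dimmest, gave -0.24, also short of the threshold.

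**Figure D1:**
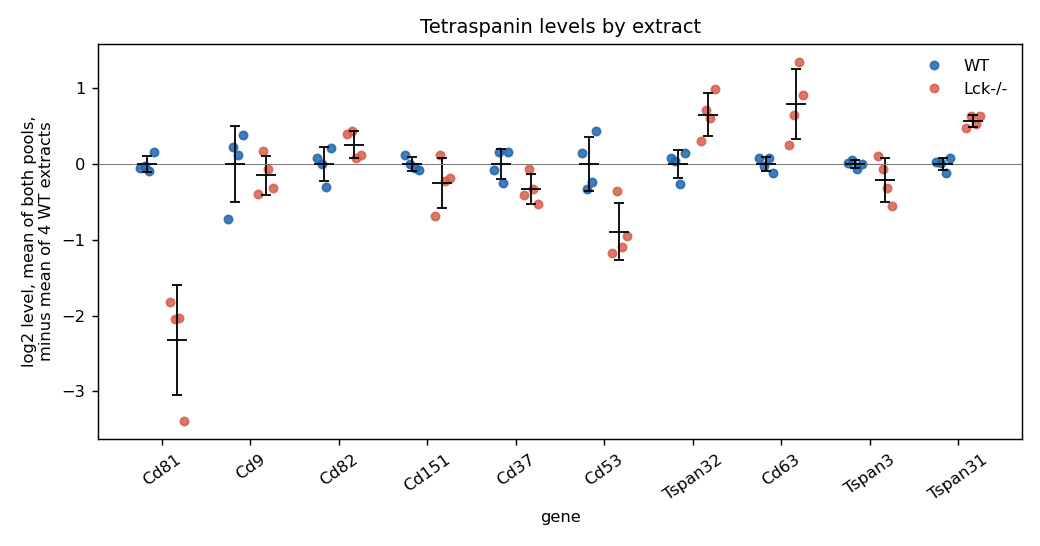
Log2 level of each tetraspanin (mean of both pools) in every extract, minus the mean of its 4 WT extracts; blue points are WT and red points Lck-/-, and bars give the mean ± SD of 4 extracts. All 4 Lck-/- extracts lie below the WT extracts for Cd81 and Cd53 and above them for Cd63, Tspan31 and Tspan32; with crossed dye swaps, not drawn, the groups of Cd53 overlap.

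The leukocyte tetraspanins moved in both directions. Cd53, whose loss in mice is known to impair lymphocyte homing, was 10.50, 10.03, 10.12 and 10.79 in the WT extracts and 9.19, 10.01, 9.26 and 9.41 in the Lck-/- extracts. The groups were apart by only the small gap between Lck-/- replicate 2 and WT replicate 2, and with crossed dye swaps WT replicate 1 was at 9.93, below Lck-/- replicate 2, so that they overlapped. The mean fell from 10.36 ± 0.35 to 9.47 ± 0.37 (SD, n = 4 each), the difference being -0.89 (SE 0.22, limma adjusted p = 0.0164), or 1.85-fold lower. Slide 1 alone gave -0.67, which missed the threshold (limma adjusted p = 0.11), and slide 2 gave -1.11 (adjusted p = 0.0235). With crossed dye swaps the call was kept (limma adjusted p = 0.0207), and without WT replicates 1 and 2 it was lost (-0.99, adjusted p = 0.0502). The polysomal pool in Cy3 alone lost it too (-0.91, limma adjusted p = 0.0633).

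Tspan32, a tetraspanin of blood cells whose loss in mice is known to raise T cell proliferation, was 10.07, 10.03, 9.73 and 10.14 in the WT extracts and 10.29, 10.60 and 10.98 in Lck-/- replicates 1, 3 and 4, with replicate 2 between the last of these. Every Lck-/- extract was above every WT extract. The mean rose from 9.99 ± 0.18 to 10.64 ± 0.29 (SD, n = 4 each), a difference of 0.65 (SE 0.16, limma adjusted p = 0.0181), or 1.57-fold higher. This call was lost on slide 1 alone (0.59, adjusted p = 0.0735), without WT replicates 1 and 2 (0.71, adjusted p = 0.0692), and without Lck-/- replicate 4 or WT replicate 3. No scaling between arrays lost it too (0.62, limma adjusted p = 0.0504). So did the polysomal pool in Cy5 alone (0.65, limma adjusted p = 0.0502) or in Cy3 alone (0.66, 0.0528). Its 2 dimmer probes, whose channels were both above background on at most 4 of 8 arrays of a genotype, gave -0.11 and -0.10.

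Cd37, whose loss in mice is known to disturb leukocyte adhesion and antibody responses, did not pass the test. Its levels were 9.92, 10.15, 9.75 and 10.16 in WT and 9.59, 9.93, 9.67 and 9.47 in Lck-/- extracts. The groups overlapped through WT replicate 3 and Lck-/- replicate 2, and the difference was -0.33 (SE 0.14, 95% interval -0.65 to -0.01, limma adjusted p = 0.124). A second, dimmer probe of Cd37 was tested in the polysomal pool alone and read -0.75 there (limma adjusted p = 0.0246 over all probes), beside -0.36 for the brightest.

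**Figure D2:**
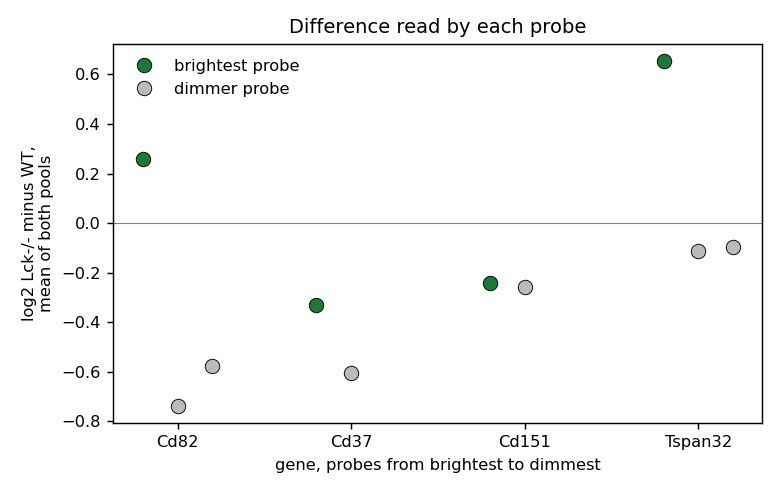
Log2 difference between genotypes (Lck-/- minus WT, mean of both pools) for each probe of the 4 tetraspanins with over 1 probe, from brightest to dimmest. The probes of Cd82 and of Tspan32 disagree in sign, at 0.26 against -0.74 and -0.57 for Cd82.

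Among the endosomal and less studied tetraspanins, Cd63, the classic marker of late endosomes and exosomes, was higher in Lck-/- cells. Its level was 8.09, 7.98, 8.09 and 7.89 in the WT extracts and 8.26, 8.66, 9.36 and 8.92 in the Lck-/- extracts. The WT extracts were close together and the Lck-/- extracts spread upward from just above them. The lowest of these, Lck-/- replicate 1, averaged arrays at 7.63, below every WT array, and 8.88. The mean rose from 8.01 ± 0.10 to 8.80 ± 0.46 (SD, n = 4 each), a difference of 0.79 (SE 0.20, limma adjusted p = 0.0208), or 1.73-fold higher. The call was lost on slide 1 alone (0.60, adjusted p = 0.234) and with the polysomal pool in Cy5 alone (0.57, limma adjusted p = 0.215). It was also lost without WT replicates 1 and 2 (0.81, adjusted p = 0.0865), and without WT replicate 2, WT replicate 4 or Lck-/- replicate 4.

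Tspan31, first known as a gene amplified in human sarcomas, had the most even difference. It was 10.80, 10.78, 10.66 and 10.85 in the WT extracts and 11.25, 11.41, 11.30 and 11.40 in the Lck-/- extracts. The groups were well apart. The mean rose from 10.77 ± 0.08 to 11.34 ± 0.08 (SD, n = 4 each), a difference of 0.57 (SE 0.11, limma adjusted p = 0.00704), or 1.48-fold higher, and both slides gave a call (0.55 and 0.58). Without WT replicates 1 and 2 it was 0.58 with an adjusted p of 0.0536. The Tspan31 probe is unusual: of its first 24 bases 23 are T or G, and its annotated span of 21 bases, chr10:126504346-126504366 (mm9), is shorter than its 60 bases. Whether it reads other RNAs was not tested. Tspan3, a widely expressed tetraspanin, was 11.51 ± 0.05 in WT and 11.30 ± 0.29 in Lck-/- extracts, a difference of -0.21 with a 95% interval of -0.53 to 0.12, and the groups overlapped.

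**Figure D3:**
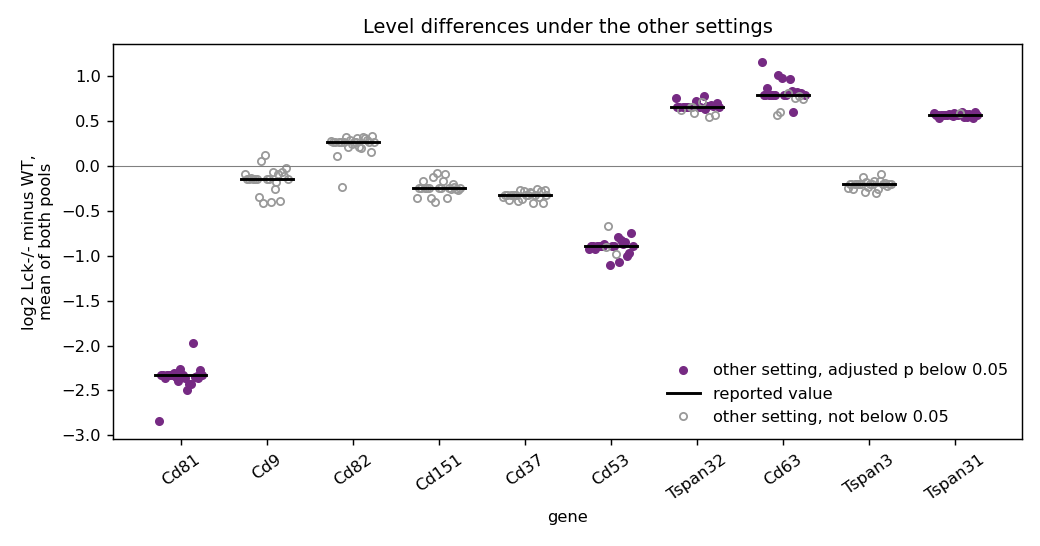
Log2 level difference (Lck-/- minus WT, mean of both pools) of each tetraspanin under the other processing settings; the black bar is the reported value, filled points have an adjusted p below 0.05 and open points do not. Cd81 keeps its call under all 24 settings, Tspan31 under 23, Cd53 under 21, Cd63 under 18 and Tspan32 under 17. Among these settings, median centring and no normalization within arrays leave the mean level unchanged and could lose no call.

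Within the polysomal pool, by the brightest probes, Cd81 was lower and Tspan32 higher, and no other tetraspanin passed the test. Dimmer probes of Cd82 and Cd37 were called lower there, as given above. Of 10292 genes tested in this pool, 5.98% were called higher and 9.24% lower, 15.2% in all. The extracts did not overlap for 4 of the 10 tetraspanins (Cd81, Tspan3, Tspan31 and Tspan32), beside 23% of all genes. Cd81 was 10.73, 10.80, 10.83 and 11.11 in WT and 8.86, 8.96, 8.88 and 7.62 in Lck-/- extracts. These groups were far apart, with a difference of -2.29 (SE 0.27, limma adjusted p = 0.00111). Tspan32 differed by 0.74 (SE 0.18, limma adjusted p = 0.0198), with WT values of 9.22 to 9.75 below Lck-/- values of 10.04 to 10.60, and this call was lost under 10 of 24 other settings. Among them were crossed dye swaps (limma adjusted p = 0.0795), where the groups of Tspan32 overlapped, and leaving out WT replicates 1 and 2 (0.87, adjusted p = 0.0796). The call of Cd81 was kept without those extracts (-2.39, limma adjusted p = 0.0293). Averaging the probes of Tspan32 that passed the filter also lost its call (0.30, limma adjusted p = 0.215). A dimmer probe of Tspan32, tested in this pool alone, read -0.13 (SE 0.15, limma adjusted p = 0.603 over all probes). Cd53 (-0.81, adjusted p = 0.0678), Cd63 (0.76, adjusted p = 0.0691) and Tspan31 (0.36, adjusted p = 0.118) missed the threshold in limma's test, and so did Tspan3 at -0.45 (0.0817).

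Within the sub-polysomal pool the calls were those of the mean level. Of 9703 genes, 9.49% were called higher and 10.8% lower, 20.3% in all. The extracts did not overlap for 6 of the 10 tetraspanins (Cd81, Cd53, Cd63, Tspan31, Cd37 and Cd82), beside 26.1% of all genes. Cd81 was 11.15, 11.12, 10.97 and 11.20 in WT and 9.48, 8.91, 9.01 and 7.56 in Lck-/- extracts, a difference of -2.37 (SE 0.32, limma adjusted p = 0.00208). Cd53 was 10.18, 9.78, 9.83 and 10.32 in WT and 9.03, 9.44, 8.83 and 8.94 in Lck-/- extracts. The groups of both genes did not overlap, and Cd53 differed by -0.97 (SE 0.18, limma adjusted p = 0.00499). Cd63 differed by 0.82 (SE 0.16, limma adjusted p = 0.0075), with WT values of 7.92 to 8.12 below Lck-/- values of 8.55 to 9.30. Tspan31 differed by 0.77 (SE 0.12, limma adjusted p = 0.00286), with WT values of 10.57 to 10.77 below Lck-/- values of 11.35 to 11.54. These groups too were apart. Without WT replicates 1 and 2 the calls of Cd81 (-2.34, limma adjusted p = 0.0203), Cd53 (-1.02, 0.0276) and Tspan31 (0.85, 0.0209) were kept, and that of Cd63 was lost (0.79, 0.0502). With crossed dye swaps these 4 calls were kept, and the groups of Cd82 overlapped. Tspan32 differed by 0.57 (SE 0.17, limma adjusted p = 0.0412), its groups overlapped, and the call was lost under 15 of 24 other settings, among them crossed dye swaps (limma adjusted p = 0.0698) and leaving out WT replicates 1 and 2 (0.55, adjusted p = 0.143). With the replicate number as a block it missed the threshold (adjusted p = 0.0546). Whether a difference was unequal between the pools is what the ratio tests.

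**Figure D4:**
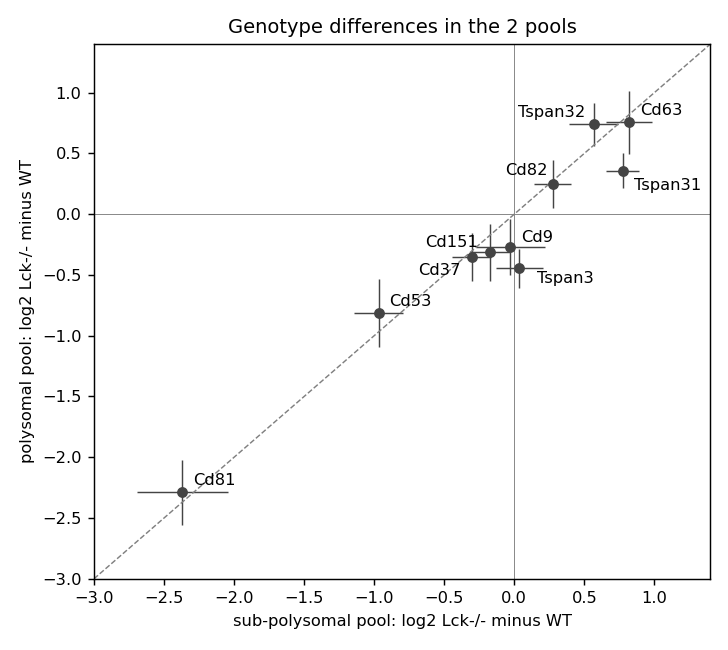
Log2 difference between genotypes (Lck-/- minus WT) in the sub-polysomal pool (horizontal) and the polysomal pool (vertical) for the 10 tetraspanins; bars are standard errors and the dashed line marks equal differences. Cd81 lies at -2.37 and -2.29, near the line, and Tspan3 and Tspan31 lie below it.

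The ratio of polysomal over sub-polysomal RNA, in log2 and relative to the typical mRNA of an array, measured how far each tetraspanin mRNA sat on polysomes. In WT cells Cd82, Cd53 and Tspan3 were above 0 and Cd37 and Tspan32 below it at adjusted p below 0.05, beside 33.5% of all genes above and 28.7% below. Cd82 had the highest ratio of the 10, at 0.89, 0.86, 0.79 and 1.27 in the WT extracts (mean 0.95, SE 0.12, limma adjusted p = 5.85e-05). Tspan32 had the lowest, at -0.63, -0.73, -1.01 and -0.92 (mean -0.82, SE 0.09, limma adjusted p = 3.35e-05). All 4 WT extracts lay on the same side of 0 for each of these 5 genes, except that with crossed dye swaps Cd53 was at -0.69 in WT replicate 1 and 1.82 in WT replicate 2. Cd53 was then called above 0 in neither genotype (limma adjusted p = 0.108 in WT and 0.065 in Lck-/- cells). Cd53 had a mean of 0.66, Tspan3 of 0.61 and Cd37 of -0.74, while Tspan31 at 0.22, Cd151 at -0.01, Cd63 at -0.03, Cd9 at -0.18 and Cd81 at -0.24 did not pass. Leaving out WT replicates 1 and 2 also gave 5 calls, with Cd53 at 0.76 (limma adjusted p = 0.0171).

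In Lck-/- cells Cd82 and Cd53 were above 0, and Cd9, Cd37 and Tspan32 below it, beside 26.9% of all genes above and 29.2% below. Cd82 was 0.79, 1.33, 0.81 and 0.78 (mean 0.93, SE 0.12) and Cd53 was 0.32, 1.15, 0.86 and 0.94 (mean 0.82, SE 0.13). Tspan32 was -0.51, -0.58, -0.75 and -0.76 (mean -0.65, SE 0.09). The signs of these 3 genes were those seen in WT cells in every extract, again except Cd53 in WT replicate 1 with crossed dye swaps. The dimmer probe of Cd37, not tested in the ratio, read 0.47 in WT and 0.19 in Lck-/- extracts. The brightest read -0.74 and -0.79. The dimmer probes of Tspan32, also untested, read -0.10 and 0.01 in WT and -0.14 and 0.12 in Lck-/- extracts. Those of Cd82 read above 0 in both genotypes, as its brightest did. These positions are relative: loess sets the typical mRNA at each brightness to about 0, and with median centring in its place 8 of the 10 were called above 0 in WT cells and none below, including Cd81 at 0.90. In WT cells Cd37 and Tspan32 turned to 0.31 and 0.24 under that setting, with neither called.

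For 0 of the 10 tetraspanins did the ratio pass limma's test between genotypes. Of 8263 genes tested, 2.81% were called higher and 1.05% lower in Lck-/- cells, 3.86% in all, and 1723 genes had an unadjusted p below 0.05. The median difference was -0.06 over the 10 tetraspanins and -0.04 over all genes. By the brightest probes the extracts did not overlap for 2 of the 10, Tspan3 and Tspan31, beside 14.5% of all genes. These 2 alone had an unadjusted p below 0.05. The second probe of Cd82 differed by -0.47 (SE 0.13, limma adjusted p = 0.0763 over all probes). Its brightest differed by -0.03 and its dimmest, not tested, by -0.07. Tspan3 was 0.56, 0.51, 0.55 and 0.81 in WT and -0.12, 0.31, 0.10 and 0.20 in Lck-/- extracts, a difference of -0.48 (SE 0.13, 95% interval -0.78 to -0.19, limma adjusted p = 0.0737). Tspan31 was 0.07, 0.15, 0.10 and 0.58 in WT and -0.19, -0.13, -0.15 and -0.29 in Lck-/- extracts, a difference of -0.41 (SE 0.14, 95% interval -0.72 to -0.11, limma adjusted p = 0.13). Both were lower in every Lck-/- extract without reaching the threshold, with unadjusted p-values of 0.004 and 0.0119 from limma. With crossed dye swaps WT replicate 2 was at -0.37 for Tspan31, below every Lck-/- extract, so that its groups overlapped, while those of Tspan3 did not. The limma adjusted p was then 0.442 for Tspan3 and 0.622 for Tspan31. For Cd81 the ratio differed by 0.08 with a 95% interval of -0.29 to 0.45, although its levels differed by -2.29 and -2.37 in the pools.

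The size of a ratio difference depends on how arrays are scaled. Before normalisation the median log2 ratio of an array pair was 1.41, 1.18, 1.73 and 1.04 in the WT extracts and 0.21, 0.39, 0.78 and 0.69 in the Lck-/- extracts, a shift of -0.82 that normalisation removes (exact permutation test, two-sided, p = 0.0286, the smallest that 4 against 4 allows). In the authors' deposited table, where the median difference over genes was -1.15, all 10 tetraspanins had lower ratios in Lck-/- columns, from -0.70 for Cd63 to -1.78 for Tspan3. In the authors' deposited table Cd81 read 1.29, 1.41, 2.46 and 1.43 in the WT columns and 0.38, 0.32, 0.44 and 0.62 in the Lck-/- columns. The median gene of the authors' deposited table was at 1.46 to 2.53 in WT and 0.53 to 0.65 in Lck-/- columns. Per the labels 1.5 µl of RNA from either pool was labelled whatever its mass, so a shift of the whole array and a difference in RNA amount cannot be told apart.

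**Figure D5:**
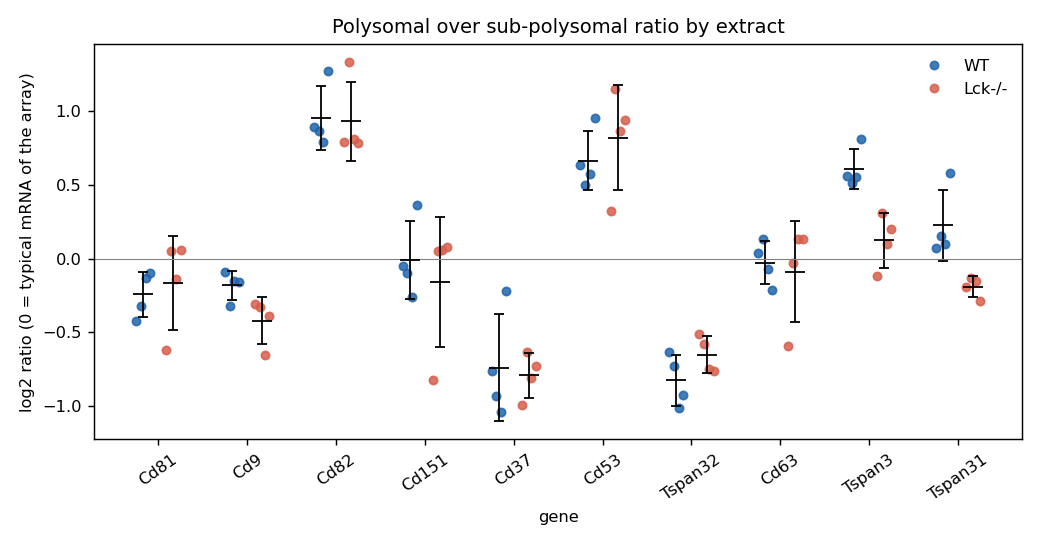
Log2 ratio of polysomal over sub-polysomal RNA for each tetraspanin in every extract, relative to the typical mRNA of the array at 0; blue points are WT, red points Lck-/-, bars the mean ± SD of 4 extracts. By the brightest probes Cd82 and Cd53 lie above 0 and Cd37 and Tspan32 below it in both genotypes. The dimmer probe of Cd37, not drawn, reads above 0 in both. For Tspan3 and Tspan31 the genotypes do not overlap. With crossed dye swaps, not drawn, those of Tspan31 overlap and Cd53 is below 0 in WT replicate 1.

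Other members of the family were read beside these 10. Of 21 other tetraspanins on the array, 7 could be tested in the mean level (Tspan2, Tspan4, Tspan5, Tspan6, Tspan13, Tspan14 and Rom1), and 0 passed limma's test in the mean level or the ratio. At an unadjusted p below 0.05 there were 2 in the mean level and 3 in the ratio, all lower in Lck-/- cells, beside 3362 of 9073 genes (37.1%) and 1723 of 8263 genes (20.9%) in either direction. The nearest to the threshold was Tspan6 at -0.36 (SE 0.12, limma adjusted p = 0.0532), and it was called lower in the polysomal pool (-0.56, adjusted p = 0.0323). Tspan4, which lies next to Cd151, was called higher in the sub-polysomal pool (0.47, limma adjusted p = 0.0416). The largest difference in level among these genes, Tspan2 at -0.75, did not pass (limma adjusted p = 0.113).

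Genes that encode partners of tetraspanins and those of their trafficking were read as lists, beside 21.4% of all genes called in the mean level. Of 28 partner genes on the array, 16 were tested in the mean level, 0 were called higher and 2 lower, with a median of 0.16. Itgb2, the shared chain of leukocyte integrins, differed by -0.48 (SE 0.12, limma adjusted p = 0.0185). Cd5, a receptor that restrains T cell receptor signalling, differed by -0.63 (SE 0.15, limma adjusted p = 0.0158). Among 18 tested genes for tetraspanin trafficking, palmitoylation and exosome sorting, 2 were higher and 2 lower, with a median of -0.01. Hgs, an ESCRT subunit, was higher by 0.38 (limma adjusted p = 0.0462) and Zdhhc5, a palmitoyltransferase, by 0.45 (adjusted p = 0.0281). Rab11a, a GTPase of recycling endosomes, was lower at -0.96 (limma adjusted p = 0.0032) and Zdhhc4, another palmitoyltransferase, at -1.03 (adjusted p = 0.00582). Both passed the filter on dim probes only through WT extracts, where they were higher, and were not tested in the ratio. In the ratio, 0 of the 16 partner genes and 0 of the 15 trafficking genes tested passed limma's test, beside 3.86% of all genes. At an unadjusted p below 0.05 were 1 partner gene, higher in Lck-/- cells, and 5 trafficking genes, all lower. The share of all genes at that level, in either direction, was 20.9%.

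Cd81, Cd9, Cd63 and Cd37 are also made by other cells of a lymph node, so markers of those cells were read beside them. A marker is called detected here if both channels were above background on 6 or more of 8 arrays of a genotype. All 12 T cell markers were detected in WT extracts and 11 in Lck-/- extracts, and their summed log2 level was 16.9 to 17.2 in WT and 17.16 to 17.27 in Lck-/- extracts. In the mean level 2 of the 12 were higher and 2 lower, beside 10.2% and 11.2% of all genes. Lat, an adaptor of T cell receptor signalling, was higher by 0.58 (SE 0.12, limma adjusted p = 0.00906) and Thy1 by 0.44 (SE 0.13, adjusted p = 0.0355). Trat1, a receptor-associated adaptor that passed the filter only through WT extracts, was lower at -0.65 (SE 0.14, limma adjusted p = 0.00906), and Cd5 was lower as given above.

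Of 8 B cell markers only Cd79b was detected, and those not detected in either genotype included Cd79a, Ms4a1, Blnk, Pax5, Cd22 and Fcer2a. Of 14 myeloid and dendritic cell markers on the array, 5 were detected in WT and 6 in Lck-/- extracts, with a summed level of 12.3 to 12.79 in WT and 12.03 to 12.41 in Lck-/- extracts. H2-Ab1, a class II chain of antigen-presenting cells, was at 10.87 in WT and 9.89 in Lck-/- extracts, a difference of -0.98 (SE 0.16, limma adjusted p = 0.00282). Csf1r was at 9.63 and 9.91 and Itgam at 10.49 and 9.79 in WT and Lck-/- extracts, while H2-Eb1 was at 9.05 in WT and differed by -0.04, none of them past the threshold. Itgax, Lyz2, Cd14, Adgre1, H2-Aa, Flt3, Xcr1 and Mpeg1 were detected in neither genotype, although Mpeg1 had both channels above background on 4 WT and 5 Lck-/- arrays.

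Of 6 NK cell markers Eomes and Nkg7 were detected, and the summed level was 13.04 to 13.58 in WT and 13.44 to 14.03 in Lck-/- extracts. Eomes, a transcription factor of NK and CD8 T cells, rose from 9.56 to 11.63 (difference 2.07, SE 0.33, limma adjusted p = 0.00289), and Nkg7 was at 13.08 and 13.04. Ncr1, Klrb1c, Klra8 and Klre1 were not detected in either genotype, with Klra8 above background on 2 WT and 5 Lck-/- arrays. Of 5 platelet markers 0 were detected in WT and 2 in Lck-/- extracts, with summed levels of 9.23 to 9.41 and 9.34 to 9.90. Of 2 platelet markers tested, 0 were called in the mean level. In the sub-polysomal pool 1 of 2 was called higher, beside 9.49% of all genes. Of 9 stromal markers 0 were detected in either genotype. By the channel of a single pool alone, 3 NK cell markers could be tested in each pool and 1 stromal marker in the polysomal pool. Of 3 erythroid markers on the array, 0 were detected in WT and 1 in Lck-/- extracts, with summed levels of 8.31 to 8.73 and 8.57 to 10.53. The part of these cells in the tetraspanin differences was not tested.

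Genes whose levels followed those of Cd81 and Cd63 most closely were found by Pearson's r over the 16 levels, 8 extracts in both pools, among 9072 other genes. The 16 levels share extracts and scaling, so r is a description. For Cd81 they were Rmdn1 (0.963), Ssr4 (0.961), Gnas (0.96), Sap130 (0.955) and Zbtb25 (0.953). For Cd63 they were Rhoc (0.932), Snap29 (0.918), Arhgef2 (0.905), Fscn1 (0.904) and Nktr (0.901). Gnas, the stimulatory G protein subunit, differed between genotypes by -2.13 (SE 0.29) in mean level, beside -2.33 for Cd81, and Fscn1, an actin-bundling protein, by 0.90 (SE 0.13), beside 0.79 for Cd63.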

How the data were processed

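RNA of 8 extracts was measured on 16 two-colour Agilent arrays on 2 slides. The deposited scanner files give mean spot intensity and median background intensity, with processed intensity beside them, from Agilent Feature Extraction (10.7.3.1) and with probe positions on mm9, per the file headers. Other deposited columns are flags for spots above background, saturated or outlying; 0 probes were saturated. The authors' deposited table holds normalised log2 ratios per probe with dye swaps combined; the submitters' processing notes name limma, and the scale and centring of these ratios are not given in the sources used here. The labelling protocol names the same dyes for all arrays, so the dye of each pool was taken from the label fields.

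The limma package (3.58.1, in R 4.3.3) was used. Intensities were background-corrected with normexp (offset 50) and normalised with loess within arrays (controls and outliers at weight 0). Aquantile then scaled the mean of both channels between arrays and left the ratios unchanged. The level of each pool was rebuilt from that mean and the ratio. The 2 arrays of an extract were averaged, which balances the dyes. Gene names were found in the RefSeq reference for 31381 of 55681 probes. A ratio was tested if, in each genotype, 6 or more of 8 arrays flagged both channels above background, and a level if this held for its channels in 1 genotype. Linear models with empirical Bayes variances over all genes gave Lck-/- minus WT, with Benjamini-Hochberg adjustment and a threshold of 0.05; the steps were tested on simulated data. The number of extracts limits the precision.

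The tetraspanins and all gene lists were chosen with earlier results of these data known. Lck is named first, all 10 tetraspanins are named, and of each other list the 4 genes with the smallest p among those that passed in the mean level or the ratio; the 5 most alike genes are given for the tetraspanins with the largest rise and fall. A gene of the marker and partner lists is not reported here by name. Genes named from single pools, Tspan2 and Tspan6 were singled out after their values were seen. Other settings changed the background correction, normalization, filter, probe choice, dyes, slides, extracts and the replicate block, and used the authors' ratios. Same-numbered extracts of the 2 genotypes deviated together at -0.29 to 0.473, so the numbers were not taken as pairs.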

Additional observations from a re-analysis of the deposited data

Results flagged for a closer look

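Each tetraspanin's 4 extracts of a genotype were examined in the ratio and the 3 levels, 80 groups in all, for an extract whose gap to its nearest neighbour exceeded Dixon's 95% critical share of the group's range. This gap was exceeded in 9 groups, and chance alone gives about 5% of independent groups. The ratio and the 3 levels of a gene share values, so these groups are not independent. Nothing is read from their number. No explanation was tested for any of them.

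Lck-/- replicate 4 was far below the other Lck-/- extracts for Cd81, at 7.59 in mean level against 8.94 to 9.17 and at 7.62 in the polysomal pool against 8.86 to 8.96. WT replicate 2 was high for Cd37 in the sub-polysomal pool, at 10.61 against 10.27 to 10.30. Lck-/- replicate 2 was high for the Cd82 ratio, at 1.33 against 0.78 to 0.81, and for Cd151 in the sub-polysomal pool, at 8.57 against 8.20 to 8.25. Lck-/- replicate 1 was low for the Cd151 ratio, at -0.82 against 0.05 to 0.08. WT replicate 4 was high for the Tspan3 ratio, at 0.81 against 0.51 to 0.56, and for the Tspan31 ratio, at 0.58 against 0.07 to 0.15. Without that extract the ratio difference was -0.42 for Tspan3 and -0.30 for Tspan31, neither past the threshold. WT replicate 3 was low for Tspan32 in the polysomal pool, at 9.22 against 9.67 to 9.75, and without it Tspan32 was no longer called there (0.62).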

How the results depend on the processing

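Cd81 was called lower in the mean level and in both pools under all 24 other settings, from -2.84 to -1.97 in mean level. Median centring and no normalization within arrays leave the mean level unchanged, so they could lose no call there. The other level calls of Cd53, Cd63, Tspan31 and Tspan32 kept their direction under every setting, and each lost significance under some. The number of tetraspanins called in the mean level (5) stood beside 1943 of 9073 genes. With the polysomal pool in Cy5 alone it was 3 (999 genes), and with it in Cy3 alone 3 (940 genes). It was 2 on slide 1 alone (861 of 9069 genes), 1 without WT replicates 1 and 2 (826 of 9073), and 3 to 5 with each extract left out in turn. In the polysomal pool (2) it was 4 with median centring and 4 with no normalization within arrays, beside 2205 and 2920 of 10292 genes. It was 1 with the mean of all probes that passed the filter (1465 of 10301 genes) and 1 with Cy5 alone (140 of 10292). Slide 1 gave 1 (85 of 10286) and slide 2 gave 5 (1940 of 10249). Crossed dye swaps gave 1 (696 of 10292). Without WT replicates 1 and 2 it was 1 (246 of 10292), and with each extract left out 1 to 4. In the sub-polysomal pool (5) it was 2 with Cy5 alone (755 of 9703 genes) and 2 on slide 2 (177 of 9660). It was 3 without WT replicates 1 and 2 (1100 of 9703), and 4 to 5 with each extract left out. For the ratio difference (0) it was 5 with median centring and 8 with no normalization, beside 4686 and 5980 of 8263 genes. With the authors' ratios as given it was 10, beside 7451 of 8252 genes, and with those centred 1 (717 genes). It was 1 with slide and dye terms over 16 arrays (378 of 8217 genes), and 0 to 1 with each extract left out. The replicate block gave 0, 5, 2 and 4 calls for the ratio, the mean, the polysomal and the sub-polysomal level, and Tspan32 in the sub-polysomal pool was the call it changed.

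With median centring, and also without normalization, the median ratio difference over all genes was -0.78, and differences of tetraspanins turned: Cd81 to -0.80 with median centring and -0.81 without normalization, and Cd53 to -0.61 without normalization. In the authors' deposited table they were -1.21 for Cd81, -1.08 for Cd53 and -0.95 for Tspan32. The ratio against 0, whose other settings were added after seeing the data, was called for 5 tetraspanins in WT cells. It was 8 with median centring, 10 without normalization and 10 with the authors' ratios, where the median gene was at 1.05, 1.34 and 1.77. With each extract left out it was 5 to 6. In Lck-/- cells the 5 became 2 with median centring and 3 with Cy3 alone, and stayed at 5 with each extract left out. In WT cells median centring turned Cd81 to 0.90, Cd9 to 0.58, Cd37 to 0.31, Cd63 to 0.57, Cd151 to 0.72 and Tspan32 to 0.24. Without normalization these were 1.18, 0.87, 0.59, 0.86, 1.00 and 0.52, and by the authors' deposited ratios 1.65, 1.14, 0.97, 1.34, 1.52 and 0.93. In Lck-/- cells Cd9 turned to 0.16 and Cd63 to 0.52 without normalization, and to 0.16 and 0.64 in the authors' deposited table, with Cd151 at 0.53. The cause was not tested.

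Over all genes, and leaving out the setting that tests every probe, calls ranged across settings from 30 to 7451 for the ratio (319 in the report), 826 to 2353 for the mean level (1943), 85 to 2920 for the polysomal pool (1566) and 177 to 3986 for the sub-polysomal pool (1965). Differences called under neither setting changed sign in 27 of 246 values of the ratio, 3 of 238 of the mean level, 5 of 240 of the polysomal and 17 of 238 of the sub-polysomal level. Signal over background limits Cd9, Cd63, Cd151 and Cd81, whose brightest probe was above background on 7 of 8 arrays of a genotype.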

Other observations

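Genes next to the tetraspanins were read after the tetraspanins' values had been seen. Tspan32 and Cd81 are neighbours on chromosome 7, with Tspan32 higher by 0.65 and Cd81 lower at -2.33 in mean level. Tssc4, on the other side of Cd81, was higher by 0.75 (SE 0.19, limma adjusted p = 0.0195). Ascl2, R74862, Trpm5 and Kcnq1, of the same stretch, were not well above background on enough arrays to be tested. Cdk4, the cell cycle kinase whose gene abuts Tspan31, differed by -0.33 (SE 0.16, limma adjusted p = 0.146), beside 0.57 for Tspan31, and Agap2 on its other side was higher by 0.47 (SE 0.15, limma adjusted p = 0.0479).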
